A study of Mus musculus with 6 samples.

Results

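Nr2f1, Nr2f2, Hand2, Foxf1, Foxf2 and Foxl1 encode transcription factors of mesenchymal tissue that are tied to Hedgehog signalling, and their transcripts were compared between control uteri and uteri in which the gene for Indian hedgehog (Ihh) was to be deleted. They were chosen by name, as every probe set that carries exactly 1 gene symbol among the 6, which gave 15 of 45037 probe sets, with 1 for Nr2f1, 6 for Nr2f2, 3 for Hand2, 2 for Foxf1, 2 for Foxf2 and 1 for Foxl1. The control group held 3 uterus samples of Ihhf/f mice, whose floxed Ihh alleles stay intact. The Ihh-ablated group held 3 uterus samples of PRcre/+ Ihhf/f mice (Ihhd/d). In these a Cre recombinase made from the progesterone receptor locus removes the floxed part. Both groups share the floxed alleles and the day, day -1 of an artificial decidual response, in which hormones and a stimulus make the endometrial stroma differentiate without an embryo. Only the Ihh-ablated group carries the Cre, and what Cre does by itself cannot be told apart here from loss of Ihh. For both groups 1 label field names SmoM2, a different model, while titles, genotypes and the design text give the Ihh genotypes used here. Each sample of whole uterus was hybridised to 1 array. The labels number the samples as replicates and do not state that they come from separate mice. The p-values therefore cover the spread among these arrays, which could be technical alone.

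As background, Ihh is a secreted ligand that the uterine epithelium makes under progesterone. It binds Ptch1 on stromal cells, which frees Smoothened and lets the Gli factors switch on targets such as Gli1 and Ptch1 themselves. Nr2f2 (COUP-TFII) is the stromal nuclear receptor placed below Ihh on the way to Bmp2 and decidualization, and Nr2f1 (COUP-TFI) is its close relative. Hand2 is a basic helix-loop-helix factor of the stroma that progesterone induces and that restrains stromal fibroblast growth factors, which otherwise drive epithelial division. Foxf1, Foxf2 and Foxl1 are forkhead factors that respond to epithelial Hedgehog ligands in the mesenchyme of the gut.

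Promoter windows, from 250 bases before to 50 bases after a transcript start, were held in the RefSeq table (build GRCm38.p6) for 4 of the 6 genes. Those of Hand2 (chr8:57320733-57321032, plus strand) and Nr2f2 (chr7:70366697-70366996, minus strand) are shown because these genes have the most probe sets. Both are written 5′ to 3′ on the gene's strand, and capitals mark CANNTG, the E-box that helix-loop-helix factors such as Hand2 recognise.
Hand2: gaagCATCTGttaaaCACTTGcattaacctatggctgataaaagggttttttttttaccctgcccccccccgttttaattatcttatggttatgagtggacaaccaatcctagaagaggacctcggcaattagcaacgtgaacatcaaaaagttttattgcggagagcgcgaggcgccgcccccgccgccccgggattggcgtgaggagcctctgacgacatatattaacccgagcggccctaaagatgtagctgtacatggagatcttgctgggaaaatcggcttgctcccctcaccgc
Nr2f2: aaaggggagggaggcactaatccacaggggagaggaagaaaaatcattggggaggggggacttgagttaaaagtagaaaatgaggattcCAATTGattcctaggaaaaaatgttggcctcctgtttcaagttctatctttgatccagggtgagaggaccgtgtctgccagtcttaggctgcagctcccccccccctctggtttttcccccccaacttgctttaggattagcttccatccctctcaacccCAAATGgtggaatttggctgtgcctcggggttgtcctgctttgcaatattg
The Hand2 window holds 2 E-boxes, at -246 and -235 from the start, and the Nr2f2 window 2, at -161 and -1. E-boxes are common, in 72.3% of the 32851 promoter windows of the table. GACCACCCA, a motif of the Gli factors, was searched on both strands and is in 0 of the 5 windows of Nr2f1, Nr2f2, Hand2 and Foxf2, and in 0.253% of all windows. AGGTCA, a site of nuclear receptors such as Nr2f2, is likewise in 0 of these 5 (16.3% of all), and the forkhead motif TGTTTAC is in 1, an inner start of Nr2f1 (3.65% of all). The windows of Hand2 and Nr2f2 are alike in GC content, at 50.3% and 49.7%, but not in CpG dinucleotides. Their observed over expected ratio was 0.897 in the Hand2 window and 0.109 in the Nr2f2 window, with a median of 0.384 over all windows. The Nr2f2 window lies at the outermost start of the gene, and any inner start has no window here, so the ratio describes this window only.

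The 13 probe sets tested, of all factors but Foxf2, read lower on average in Ihh-ablated uteri, and 0 of them passed at an adjusted p under 0.05 (limma, Benjamini-Hochberg over all 33778 probe sets tested), where 2.14% of all did. The dimmest 25% of probe sets by mean log2 intensity went untested, which removed both Foxf2 probe sets. At an unadjusted p under 0.05, 5 of the 13 passed, against 22.9% of all, namely 3 of Hand2 and 2 of Nr2f2. All 13 had a log2 difference (Ihh-ablated minus control) below 0, as did 56.6% of all tested, and their median was -0.24 against -0.04. In 8 of the 13 each Ihh-ablated array read below each control array, which held for 17.9% of all probe sets. Hand2 1443854_at, counted among the 5 and the 8, had all its Ihh-ablated readings under the filter intensity of 71.4. Probe sets of 1 gene share a transcript, so these 13 are not independent. With the arrays centred on their medians, 11 of 13 were lower and the median was -0.14, while that of all probe sets moved from -0.04 to 0.05. Levels of different probe sets are not compared here, since probes differ in how strongly they bind.

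**Figure D1:**
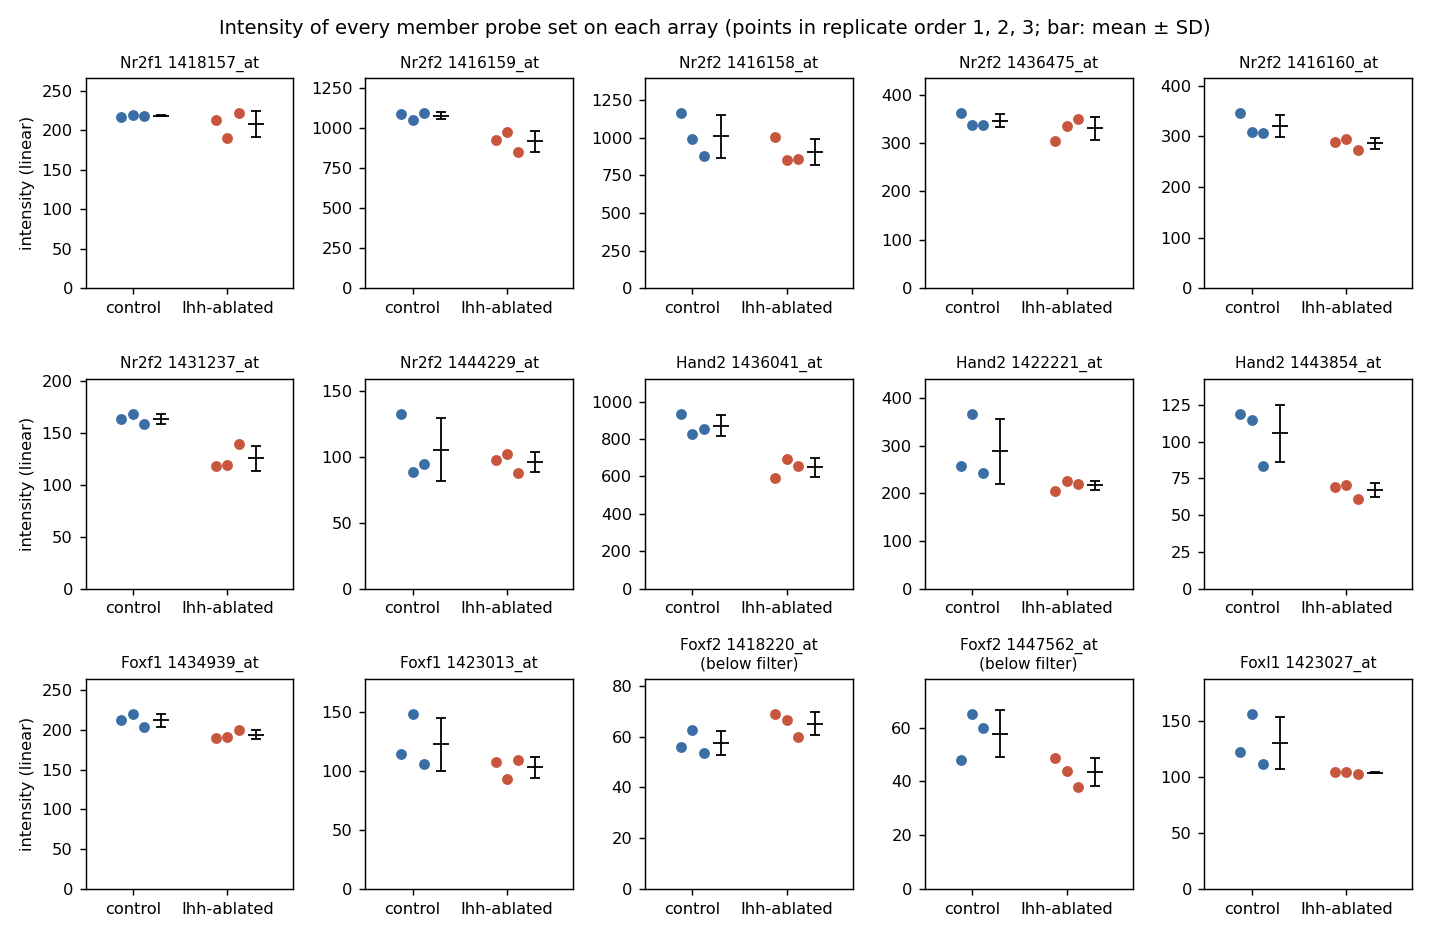
Linear intensity (vertical axis, from 0, its own scale in each panel) of the 15 probe sets in control (blue) and Ihh-ablated (red) uteri, with 1 point per array and a black bar for mean ± SD (n = 3 each). The 3 Hand2 panels show all Ihh-ablated points below all control points. The Nr2f1 groups overlap, with Ihh-ablated points at 190.4 and 213.7 below the controls and 1 at 221.7 above them.

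Hand2 showed the largest differences. Its brightest probe set, 1436041_at, read 935.9, 828.8 and 852.0 in control uteri and 593.5, 696.0 and 657.6 in Ihh-ablated uteri. Each Ihh-ablated array lay below each control array, with means of 872.2 ± 56.3 and 649.0 ± 51.8 (SD, n = 3 each). The log2 difference was -0.43 (SE 0.09, 95% interval -0.64 to -0.22), that is 1.35-fold lower, with an adjusted p of 0.0514 in limma, which just missed the threshold. Probe set 1443854_at read 118.9, 114.5 and 83.4 in controls against 69.4, 70.3 and 61.2 after ablation. Its groups did not overlap either, and it differed by -0.64 (95% interval -1.00 to -0.28, limma adjusted p = 0.0761). Its Ihh-ablated readings all lay under the filter intensity of 71.4, so it was tested only through its control readings. Without detection calls those Ihh-ablated readings cannot be placed above background. Probe set 1422221_at read 256.4, 366.7 and 241.8 in controls against 205.6, 224.8 and 218.4 after ablation. Here too the groups were separate, but control replicate 2 stood well above the other controls, and the difference was -0.39 (95% interval -0.75 to -0.03, adjusted p = 0.190), or -0.20 without that array (adjusted p = 0.291).

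Whether Hand2 passed depended on the processing and on the arrays used. Probe set 1436041_at passed in 8 of 18 alternatives, with adjusted p between 0.0320 and 0.375 over all of them, and its difference stayed between -0.50 and -0.34. It passed without control replicate 3 (-0.44, adjusted p = 0.0331) and missed without any other single array. Probe set 1443854_at passed in 4 of 17, among them without control replicate 3 (-0.80, adjusted p = 0.0108). Probe set 1422221_at passed in 0 of 18. With 1 value for the gene, the mean of its 3 probe sets, the difference was -0.49 (95% interval -0.73 to -0.25, adjusted p = 0.0525). On that mean the control arrays lay 0.29, 0.39 and 0.05 above the 6-array average and the Ihh-ablated arrays at -0.29, -0.17 and -0.27, so control replicate 3 was the control closest to the other group.

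**Figure D2:**
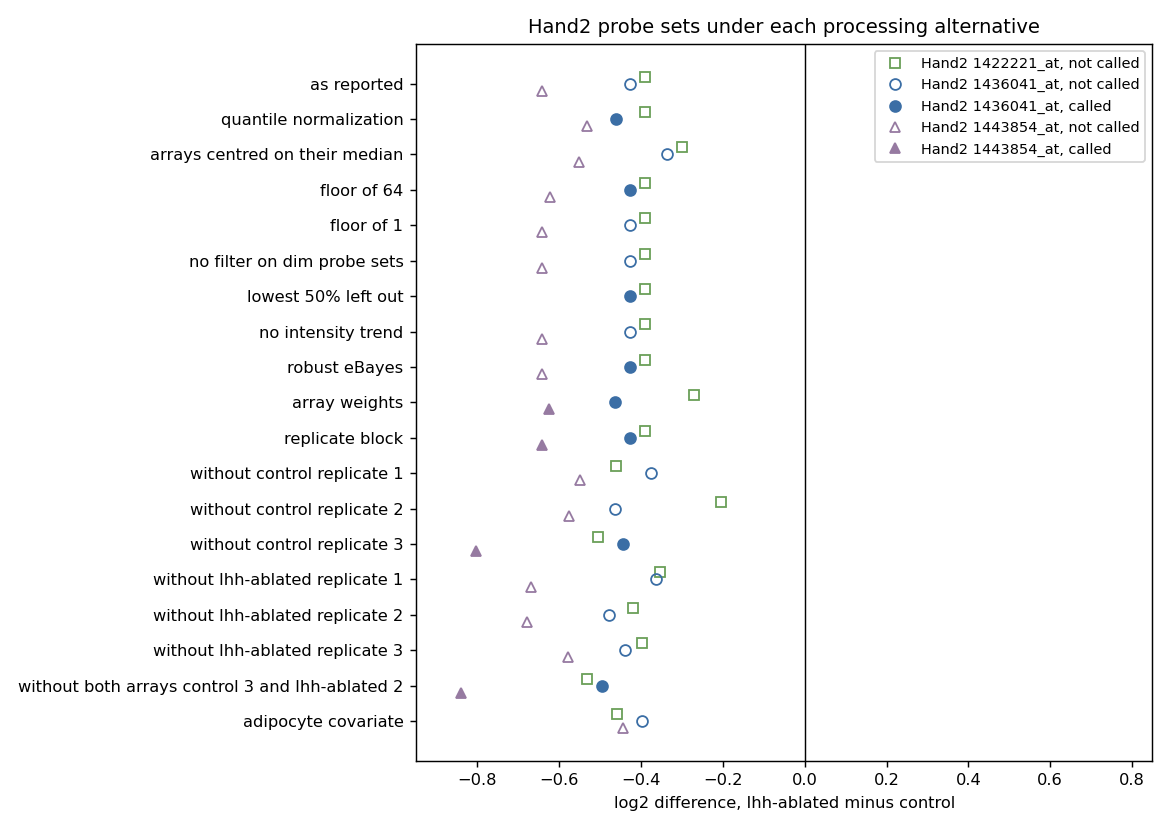
Log2 difference (horizontal axis, Ihh-ablated minus control) of the 3 Hand2 probe sets (1436041_at circles, 1443854_at triangles, 1422221_at squares) under each processing alternative (vertical axis), filled where the limma adjusted p is under 0.05. All symbols lie left of 0, and the filled ones are 8 circles and 4 triangles.

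Nr2f2 was lower by less. Its brightest probe set, 1416159_at, read 1092, 1055 and 1094 in controls against 924.8, 980.3 and 852.7 after ablation. The groups did not overlap, and the means were 1081 ± 22.0 and 919.3 ± 63.97 (SD, n = 3 each). The log2 difference of -0.24 (95% interval -0.41 to -0.06), 1.18-fold lower, had an adjusted p of 0.138 in limma. Probe set 1431237_at differed most among the 6, reading 163.4, 168.4 and 158.5 in controls against 118.2, 118.9 and 139.1 after ablation. Its groups were separate as well, at a difference of -0.39 (95% interval -0.66 to -0.12, adjusted p = 0.123). A separation without overlap was also seen for 1416160_at, which read 345.1, 308.8 and 307.3 in controls against 289.5, 295.3 and 273.0 after ablation (log2 -0.16, adjusted p = 0.352).

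The other 3 Nr2f2 probe sets overlapped between groups. Probe set 1416158_at read 1162, 992.2 and 879.0 in controls against 1005, 854.2 and 861.1 after ablation (log2 -0.15, adjusted p = 0.430), with control replicate 1 alone above the rest. Probe set 1436475_at differed by -0.07 (adjusted p = 0.689) and 1444229_at by -0.11 (adjusted p = 0.690). Over the mean of all 6 the difference was -0.19 (95% interval -0.38 to 0.00, adjusted p = 0.212), and 0 of the 6 passed under any of the alternatives. The direction was not stable for 3 of them. Probe set 1436475_at read 0.023 with centred arrays, 1416158_at 0.047 with the adipocyte markers as a covariate, and 1444229_at 0.064 without control replicate 1 and 0.14 with that covariate.

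Nr2f1, the relative of Nr2f2, showed no separation. Its single probe set read 217.7, 219.1 and 218.7 in controls against 213.7, 190.4 and 221.7 after ablation. The controls were close together, at 218.5 ± 0.716 (SD, n = 3), and 1 Ihh-ablated array read above them all. The difference was -0.07 (95% interval -0.32 to 0.18, limma adjusted p = 0.708) and 0.021 with centred arrays. The interval still allows a fall as large as the estimate for Nr2f2 probe set 1416159_at.

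Among the forkhead factors, 0 of the 3 tested probe sets of Foxf1 and Foxl1 passed. Foxf1 probe set 1434939_at read 212.5, 219.9 and 202.9 in controls against 190.0, 191.2 and 200.2 after ablation. The groups were separate by a narrow margin, at -0.13 (95% interval -0.36 to 0.11, limma adjusted p = 0.469). The second Foxf1 probe set, 1423013_at, read 114.2, 148.3 and 105.9 in controls against 107.7, 92.9 and 108.9 after ablation. Its groups overlapped, and the difference of -0.24 (adjusted p = 0.364) was -0.10 without control replicate 2. Foxl1 read 122.2, 156.7 and 112.3 in controls against 104.8, 104.6 and 103.3 after ablation. All Ihh-ablated arrays were lower and nearly equal to each other, and the difference of -0.31 (95% interval -0.63 to 0.02, adjusted p = 0.238) was -0.17 without control replicate 2 (adjusted p = 0.372).

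Control replicate 2 was often the brightest array among probe sets of low and middle intensity. It read highest of the 6 arrays for 5 of the 13 probe sets, both of Foxf1, that of Foxl1, 1422221_at of Hand2 and 1431237_at of Nr2f2. Over all tested probe sets it read highest for 42.5%, for 60.3% of the dimmest 8445 and for 18.7% of the brightest 8445. Besides the values without it given above, Foxf1 1434939_at then differed by -0.10 (limma adjusted p = 0.581) and Nr2f2 1431237_at by -0.36 (0.156).

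Foxf2 had levels under the filter only, with no test. Probe set 1418220_at read 56.2, 62.9 and 53.5 in controls against 69.0, 66.7 and 60.0 after ablation. Probe set 1447562_at read 48.0, 65.1 and 60.0 in controls against 48.6, 44.0 and 37.9 after ablation. The first thus leaned higher in Ihh-ablated uteri (log2 0.18) and the second lower (-0.40), with overlapping groups in both. The filter lies at an intensity of 71.4, and without detection calls these values cannot be placed above background.

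The Ihh probe set itself read 163.9, 162.3 and 140.2 in controls against 121.4, 93.3 and 135.4 after ablation. All arrays of the Ihh-ablated group were lower, but the difference of -0.43 missed the threshold (limma adjusted p = 0.164), and whether its probes lie in the deleted part is not stated. Gli1 and the brightest Ptch1 probe set moved by more than any probe set of the 6 factors. Gli1, the transcription factor that reports pathway activity, fell from 515.2, 386.1 and 355.7 to 76.3, 75.0 and 64.8, a log2 difference of -2.53 (95% interval -2.88 to -2.17, limma adjusted p = 0.000492). Ptch1, the receptor, fell by 1.65 on the log2 scale at its brightest probe set (95% interval -1.96 to -1.34, adjusted p = 0.00146). The intervals of all 13 probe sets of the 6 factors end above that of Ptch1, the lowest bound being -1.00 for Hand2 1443854_at. A fall of the size of Gli1 or of the brightest Ptch1 probe set thus lies outside each of their intervals. For Hand2 at 1443854_at the estimate itself is a 1.56-fold fall, and the interval allows a larger one, down to -1.00. The Ihh-ablated readings of that probe set lay under the filter intensity of 71.4, so the size of its fall is uncertain. The other Ptch1 probe sets differed by no more than Hand2, at -0.59 (adjusted p = 0.0440) and -0.43 (adjusted p = 0.182). Hhip, a Hedgehog-binding inhibitor and also a direct target, differed by -0.19 at both tested probe sets (adjusted p = 0.376 and 0.447). Of 17 tested genes of the Hedgehog pathway list, 2 fell and 0 rose, leaving 15 that missed the threshold, and the median was -0.18. Over 15530 genes 2.81% were called, 1.53% lower and 1.28% higher.

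**Figure D3:**
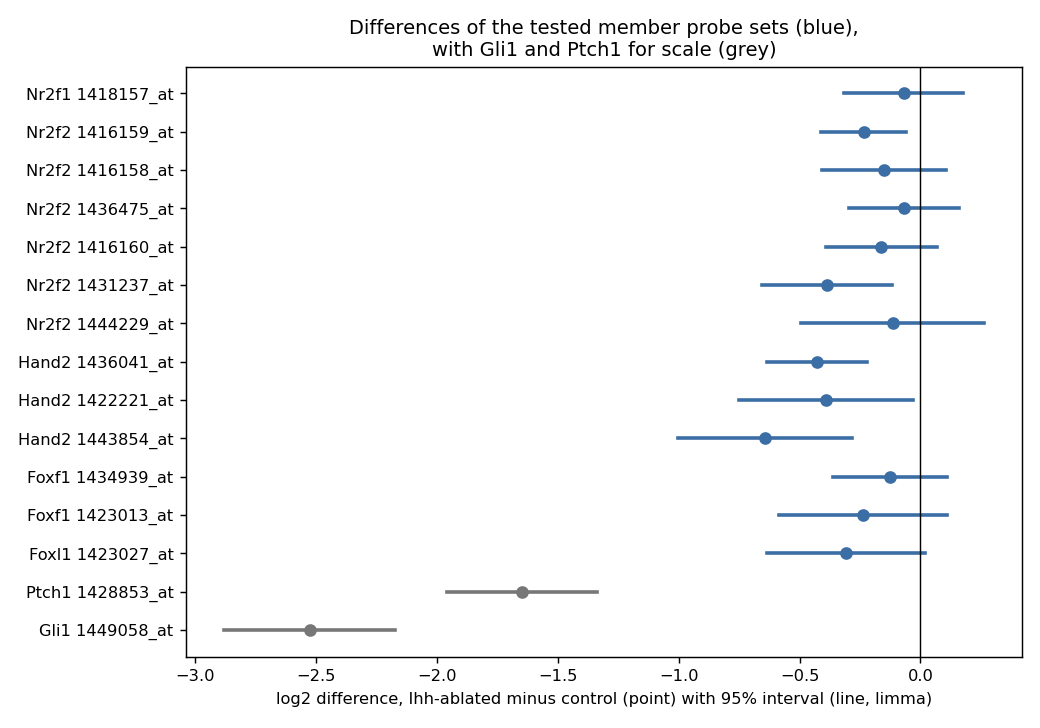
Log2 difference (horizontal axis, Ihh-ablated minus control) with its 95% interval from limma for the 13 tested probe sets (blue) and for the brightest Gli1 and Ptch1 probe sets (grey), named on the vertical axis. All blue points lie between -0.64 and -0.07, and Ptch1 and Gli1 at -1.65 and -2.53.

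Genes linked to Nr2f2 or Hand2 in the endometrium gave 0 calls among 10 tested of 12, with a median log2 difference of 0.16. At an unadjusted p under 0.05, 4 of them passed in limma, against 22.9% of all probe sets. Without control replicate 3, 4 passed at the adjusted threshold, where 3582 of all 33778 probe sets did. Bmp2, the stromal ligand placed below Nr2f2, read 119.9, 97.8 and 129.4 in controls against 183.3, 146.3 and 203.0 after ablation. All Ihh-ablated arrays were higher, but the difference of 0.61 (95% interval 0.25 to 0.98) had an adjusted p of 0.0877. Wnt4, a decidual WNT ligand, differed by 0.29 (adjusted p = 0.246) with overlapping groups.

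Among the fibroblast growth factors that Hand2 is known to restrain, none of the 3 tested passed. Fgf1 differed by 0.14 (adjusted p = 0.450), Fgf9 by -0.20 (0.351) and Fgf18 by -0.21 (0.501), and the dim Fgf2, under the filter, read 50.02, 46.8 and 44.2 in controls against 52.4, 62.9 and 52.8 after ablation. Muc1, an epithelial surface mucin, read 218.7, 230.2 and 285.1 in controls against 351.4, 390.5 and 297.6 after ablation (log2 0.50, adjusted p = 0.104). The steroid receptors Pgr and Esr1 differed by 0.18 (adjusted p = 0.129) and 0.32 (0.0547). Bmp4, Angpt1 and Il15 completed the list, at 0.13 (0.536) for Bmp4, -0.19 (0.522) for Angpt1 and no test for Il15.

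Other transcription factors of the stroma gave 3 falls and 0 rises among 26 tested genes, with a median of -0.02. Twist2, a helix-loop-helix factor that, like Hand2, binds E-boxes, fell from 846.9, 789.7 and 674.1 to 466.8, 474.0 and 467.8. Every Ihh-ablated array was lower, at a difference of -0.71 (SE 0.10, limma adjusted p = 0.0114), which missed the threshold when control replicate 1 (0.0568) or Ihh-ablated replicate 1 (0.0595) was left out. Hoxd11, a homeobox factor of the reproductive tract, fell from 331.9, 295.1 and 270.0 to 182.1, 206.0 and 195.7 (log2 -0.62, adjusted p = 0.0336). Osr2, a zinc finger factor of urogenital mesenchyme, fell from 1388, 1286 and 1149 to 919.5, 989.5 and 930.6 (log2 -0.43, adjusted p = 0.0413). Hoxd11 and Osr2 lost the call without each single array except control replicate 3, with adjusted p between 0.0639 and 0.155. The difference of Osr2 was as large as that of Hand2 1436041_at, and their adjusted p values of 0.0413 and 0.0514 lie on either side of the threshold, which is no test that the genes differ. With centred arrays Twist2 still passed (0.0395), while Hoxd11 (0.0814) and Osr2 (0.134) did not, and with the adipocyte covariate 0 of the 3 passed. Osr2 also missed without the filter (0.0625) and without an intensity trend (0.106).

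The wider forkhead family did not lean 1 way. Of 28 tested genes other than Foxf1, Foxf2 and Foxl1, 0 passed in limma, 16 differed by less than 0 and the median was -0.06. At an unadjusted p under 0.05, 8 passed, near the 22.9% of all probe sets. At the adjusted threshold 4 passed without control replicate 3 and 2 with array weights, settings under which 3582 and 1411 of all 33778 probe sets passed. Control replicate 2 read highest for 16 of these 28 genes.

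**Figure D4:**
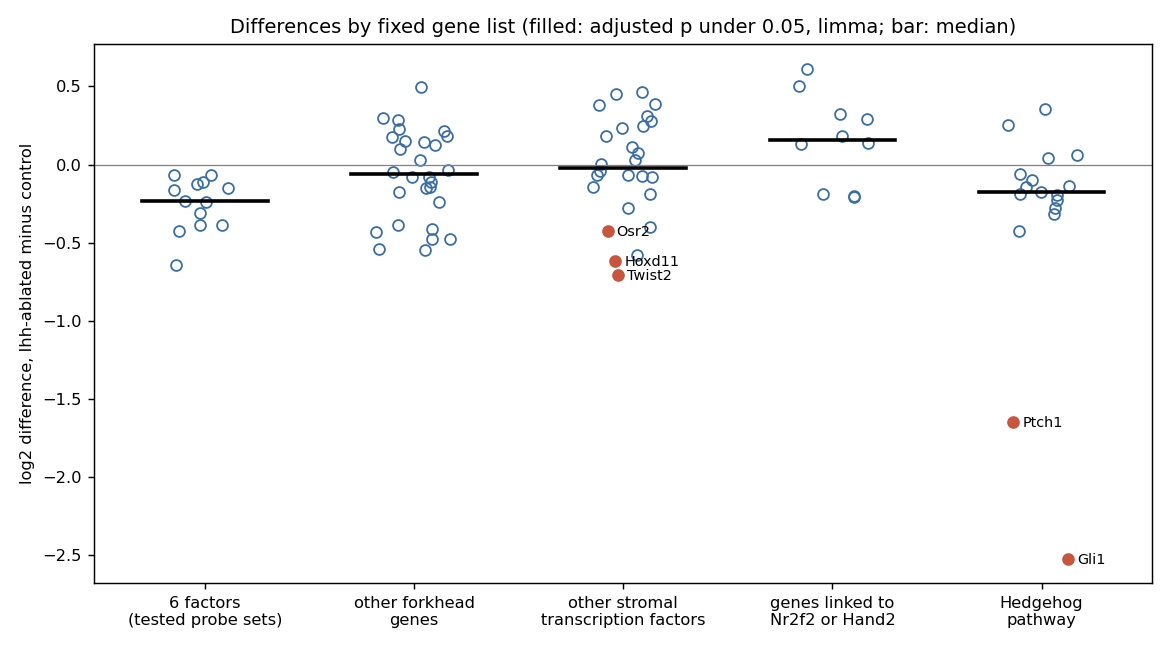
Log2 difference (vertical axis, Ihh-ablated minus control) of the 13 tested probe sets of the 6 factors and of the tested genes of 4 lists (horizontal axis), filled where the limma adjusted p is under 0.05, with a bar at each median. The medians run from -0.24 for the 6 factors to 0.16 for genes linked to Nr2f2 or Hand2, and the filled points are Gli1, Ptch1, Twist2, Hoxd11 and Osr2.

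Markers of the cell types of the uterus were read on the same arrays, and in whole uterus fewer cells of a type cannot be told apart from less RNA per cell. The mean log2 of 12 stromal markers ran from 11.66 to 11.82 in control and from 11.61 to 11.65 in Ihh-ablated uteri, with 2 higher (Dcn and Fbln1), 2 lower (Vim and Thy1) and a median of -0.03. Epithelial markers lay above 0 in 10 of 10, with a median of 0.37 and 0 passing, and their mean ran from 9.63 to 10.18 in control and from 10.23 to 10.30 in Ihh-ablated uteri. Smooth muscle markers, of interest since visceral muscle also makes Foxf1 and Nr2f2, ran from 12.23 to 12.37 and from 12.30 to 12.32, and 1 of 10 fell, Actg2 (log2 -0.25, limma adjusted p = 0.0337). Endothelial markers, of interest since veins make Nr2f2, ran from 8.83 to 8.97 and from 8.80 to 9.02, and 1 of 10 fell, Cdh5 (log2 -0.57, limma adjusted p = 0.0275). The part of these marker levels in the lower Hand2 and Nr2f2 values was not tested.

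Transcripts of other tissues were also present. The mean log2 of 6 adipocyte markers ran from 7.58 in control replicate 1 to 9.17 in control and from 8.87 to 9.94 in Ihh-ablated uteri, and Adipoq alone from 266.2 to 1649 and from 1288 to 3946. Of the 6, 0 passed, and 2 differed by less than 0, Lep (log2 -0.01) and Ucp1 (-0.38). The covariate was the mean of all 7 adipocyte markers with a probe set, the untested Cidea included. With it the Hand2 differences were -0.40 (1436041_at), -0.46 (1422221_at) and -0.45 (1443854_at), with adjusted p between 0.375 and 0.482. Pancreas markers averaged 12.99 in Ihh-ablated replicate 2 and 6.58 to 8.22 elsewhere. Without that array alone the brightest Hand2 probe set differed by -0.48 (limma adjusted p = 0.0828) and Nr2f2 1416159_at by -0.28 (0.210), and neither passed. Without control replicate 3 as well, Hand2 differed by -0.50 (adjusted p = 0.0404) and Nr2f2 1416159_at by -0.27 (adjusted p = 0.162). Leaving out control replicate 3 alone already gave Hand2 an adjusted p of 0.0331.

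Array by array, the factors did not all follow 1 pattern. The closest pair of probe sets over the 6 arrays was Hand2 1422221_at with Foxl1 (Pearson r = 0.985), both high in control replicate 2, whereas Foxl1 and the brightest Hand2 probe set reached 0.60. Nr2f2 1416159_at and Hand2 1436041_at reached 0.88, and Nr2f1 and Nr2f2 1416159_at 0.05. These describe 6 arrays that share the genotype contrast and array brightness. Among 15530 genes, those most like Hand2 1436041_at were Spdl1 (r = 0.998), Kbtbd11 (0.996) and Pcolce (0.996), and 152 genes exceeded 0.95. Those most like Nr2f2 1416159_at were Camk2g (0.99), Ap2b1 (0.99) and Ccnd1 (0.99), with 56 above 0.95, and those most like Foxf1 1434939_at were Daam2, Pak4 and Ccdc151 (each 0.99), with 144. Foxl1 had 1101 such genes, led by Noxred1 (0.9998), Cdca5 (0.999) and Eef2kmt (0.998), and Nr2f1 had 14, led by Brk1 (0.98), Prtn3 (0.97) and Dhrs13 (0.97).

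Neighbours were the nearest or overlapping named genes that have a probe set with 1 symbol, and genes without one were passed over. Of 24 such neighbours in the RefSeq gene order (assembly GRCm38.p6), 21 were tested and 0 passed, with a median of -0.04. The lowest limma adjusted p was 0.0662 for Arrdc4 (log2 -0.56, named after its value was seen). Arrdc4 lies 1602.7 kb from Nr2f2, and Gm20083, on the other side of Nr2f2, 2817.2 kb from it. Foxf1 and Foxl1 lie in 1 cluster with the long noncoding RNA gene Fendrr, Mthfsd and Foxc2, where Fendrr differed by -0.05, Mthfsd by -0.04 and Foxc2 by 0.29. Near Foxf2 lie Foxq1 (-0.05) and Foxc1 (-0.04). The transcript B130024G19Rik, which overlaps Nr2f2, differed by -0.38 (limma adjusted p = 0.177) and A830082K12Rik, which overlaps Nr2f1, by -0.25 (0.301).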

How the data were processed

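Total RNA of 6 uterus samples was labelled with biotin for Affymetrix arrays, per the labels' protocols. The deposited table holds linear intensity values, 1 per probe set, from the authors. How they were background-corrected and normalized is not stated in the sources used here, and no detection calls were used, so the size of differences at dim probe sets is the least certain. Groups and replicate numbers come from the sample titles. Of 45101 probe sets, 64 controls were left out, and GEO's platform annotation gave 1 symbol for 34945, several for 932 and none for 9160 of the rest.

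Intensities under 16 were set to 16 (1821 values, 0 of them in the 6 factors) before log2 was taken. The dimmest 25% of probe sets (mean log2) were left out. Genotypes were compared with limma 3.58.1 (R 4.3.3), using eBayes with trend (residual degrees of freedom 4, prior 5.25) and Benjamini-Hochberg adjustment over all tested probe sets. Means with SD use linear intensities, while differences, SEs and 95% intervals are of log2 values. The intervals are not adjusted for multiple tests. A listed gene stands by its brightest tested probe set. The fit was run on simulated data with independent noise, with changes planted in brighter probe sets only. That run does not bear on dim probe sets or on uneven arrays. Of the 6 factors every probe set is reported, of each list the members that passed (at most 4), and for likeness the 3 genes of highest Pearson correlation with the brightest tested probe set of each factor. The linked genes are given in full although none passed. The members, lists and alternatives were chosen with earlier results of these data known. The adipocyte covariate is the mean log2 of the 7 adipocyte markers on the array, tested or not. Motifs were searched in the RefSeq promoter table (GRCm38.p6). Figures used matplotlib 3.10.9 in Python 3.11.15. Precision is limited by having 3 arrays a group.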

Additional observations from a re-analysis of the deposited data

How the results depend on the processing

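The count of called probe sets among the 6 factors was 0 as reported, 1 after quantile normalization, with a floor of 64, with the lowest 50% left out and with robust eBayes, and 2 with array weights, at an adjusted p under 0.1 and without both control replicate 3 and Ihh-ablated replicate 2. Leaving out 1 array gave 0 to 2, with 2 without control replicate 3. All of these calls were Hand2, and lower. Of 243 differences of single probe sets over the alternatives, 224 kept direction and side of the threshold, 14 gained a call and 5 turned sign. Of the 14, 2 passed only the looser threshold of an adjusted p under 0.1, with nothing recomputed. That threshold, a floor of 1, the filter, the intensity trend, robust eBayes and the replicate block leave each difference as it was. Part of the 224 thus kept direction by design. The 5 were Nr2f1 (0.021) and Nr2f2 1436475_at (0.023) with centred arrays, Nr2f2 1444229_at without control replicate 1 (0.064, in a range of -0.23 to 0.064 with 1 array left out) and with the adipocyte covariate (0.14), and Nr2f2 1416158_at with that covariate (0.047).

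Over all probe sets 724 were called, 51.9% of them lower, against 41.3% of 487 with centred arrays. The count was 374 without an intensity trend, 1411 with array weights, 1852 at an adjusted p under 0.1, 1981 without both arrays, 34 with the adipocyte covariate, and 148 (without control replicate 1) to 3582 (without control replicate 3) with 1 array left out. Among the 81 tested genes of the lists 5 were called as reported, 3 with centred arrays, 8 with array weights, 13 at an adjusted p under 0.1, 9 without both arrays, 2 with the adipocyte covariate and 2 (without control replicate 1 or Ihh-ablated replicate 1) to 19 (without control replicate 3) with 1 array left out. The causes were not tested.

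The replicate block, which takes equal replicate numbers as pairs, gave 2 calls among the 6 factors, 1562 over all probe sets and 9 in the lists. The labels do not say that the numbers pair samples. Deviations of same-numbered samples correlated at -0.15, -0.04 and 0.25, and 2 of 6 samples correlated best with their own number. No detection calls were used, so signal over background is unknown for the dimmest probe sets, Foxf2 among them.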
